A study of Homo sapiens with 20 samples.

Results

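Cholesterol synthesis, uptake and export were followed here through 31 genes, chosen by name for their place in the pathway. The choice was made with earlier results of these data known. The genes were looked up by symbol in the deposited table of 60271 genes. All 31 were found, and all 31 were among the 16522 genes that passed edgeR's filter on low counts. They fall into 19 genes of synthesis, 7 of sensing and uptake, and 5 of export and esterification. The cells were MDA-MB-468, a line of triple negative breast cancer cells of epithelial type that carries many EGF receptors and loses its epithelial shape when EGF is added. Cells without EGF (control) were set beside cells that had 50 ng/mL of EGF in the medium for 12 h, 24 h, 48 h or 72 h before collection, with 4 biological replicates in each of the 5 groups and 20 libraries in all. Every group, the control included, was kept 24 h in culture and 24 h without serum before EGF was first added, and the labels give one seeding and one harvest for all groups, with EGF added at a different interval before the harvest. A single cell line was used, and the same 4 control libraries serve every comparison with the control.

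Cells make cholesterol from acetyl-CoA along the mevalonate pathway, which first builds isoprenoid units and squalene, and then closes squalene into a sterol ring that is trimmed to cholesterol by a chain of enzymes in the endoplasmic reticulum. When sterols are scarce, SCAP carries the transcription factor encoded by SREBF2 to the Golgi, where it is cut free to switch on genes of synthesis and uptake. INSIG1 and INSIG2 hold SCAP back when sterols are plentiful. Surplus cholesterol is esterified by SOAT1 or pumped out by ABCA1 and ABCG1, whose genes are targets of the liver X receptors NR1H3 and NR1H2. In bulk libraries such as these, a lower share of the RNA in every cell and a loss of cells that express a gene cannot be told apart.

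The libraries held 15611961 to 25856953 counts each, and mitochondrial genes took 7.69% to 16.9% of them. Expression is given as CPM, the counts of a library scaled to a common total after TMM normalization, and SE stands for the standard error, a log2 difference for the log2 fold change against the control, and the adjusted p is that of edgeR's quasi-likelihood test over all 16522 genes, with 0.05 as the threshold for a call. Replicates differed by 3.77 to 65.4 times the variance of counting alone over 30 pairs of libraries, and the typical deviation of a library from its group was largest in the control and at 48 h (up to 0.258 and 0.237 on the log2 scale, against at most 0.149 at 12 h). The epithelial markers EPCAM, KRT8, KRT18, KRT19 and CDH1 and the receptor EGFR were found in every library, with at least 83.0 CPM for each. Of the receptors whose lack names the subtype, PGR had 0 counts in all libraries, while ESR1 was at 1.91 to 6.53 CPM and ERBB2 at 7.79 to 24.6 CPM. Of 12 markers of fibroblasts, leukocytes and endothelial cells, 9 stayed under 0.5 CPM in every library, and COL1A1, CD14 and PECAM1 reached 14.8, 6.70 and 5.17 CPM.

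Over the course of EGF-treatment the pathway did not move as a block. At 12 h, 10 of the 31 genes were higher than in the control and 11 lower, with 10 not called. At 24 h 5 were higher and 14 lower, at 48 h 4 and 4, and at 72 h 8 and 18. Over all genes tested, 32.9% were called higher and 36.5% lower at 12 h, beside 32.3% and 35.5% of the pathway genes. At 24 h the background was 29.2% higher and 29.6% lower, beside 16.1% and 45.2% of the pathway genes. At 48 h it was 24.0% and 21.8%, beside 12.9% and 12.9%, and at 72 h 30.6% and 31%, beside 25.8% and 58.1%. The median log2 fold change of the 31 genes was 0.07, -0.15, -0.07 and -0.28 at the 4 successive times, and over all genes tested it lay between -0.05 and 0.01. Under scaling by library size only, the median of all genes at 12 h was itself -0.34, and the pathway then had 5 genes higher and 17 lower (upper-quartile scaling: -0.22, with 7 and 15). At 24 and 72 h, scaling by library size only gave 4 higher with 19 lower, and 6 higher with 19 lower. Of all genes called under library size only, 30.2%, 36.3% and 43.1% were higher at 12, 24 and 72 h. Among the pathway genes called, these shares were 22.7%, 17.4% and 24%. Under upper-quartile scaling at 12 h, 37.2% of all genes called were higher, beside 31.8% of the pathway genes called.

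**Figure D1:**
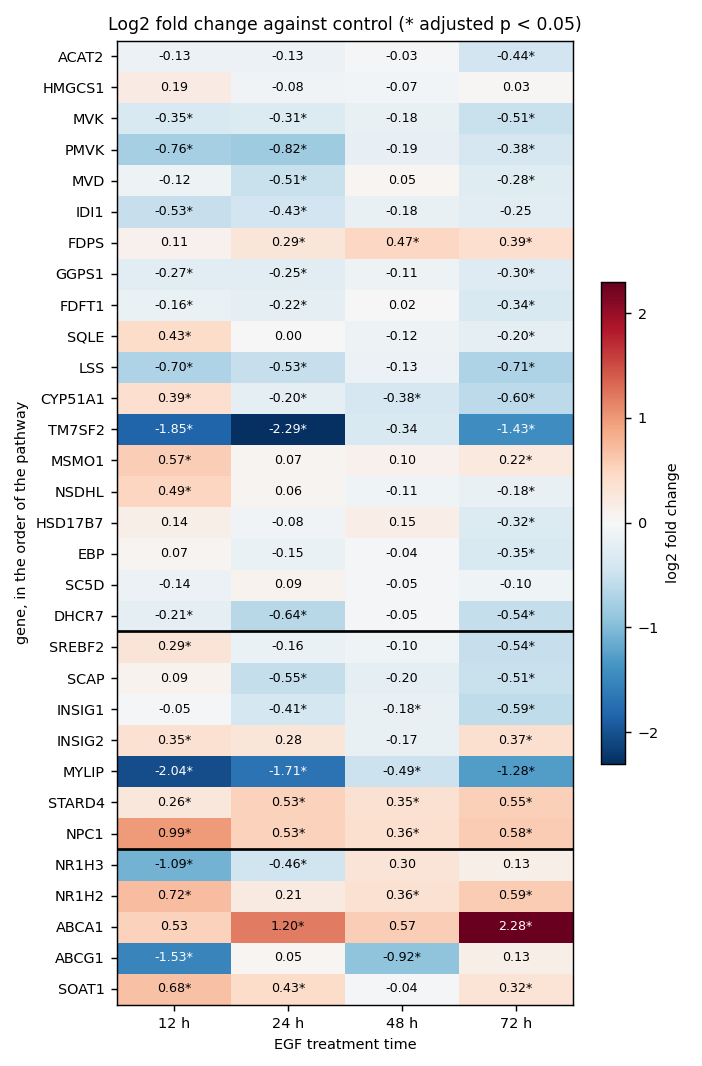
Log2 fold change of each of the 31 genes (rows, in pathway order, with black lines between synthesis, sensing and uptake, and export and esterification) by hours of EGF (12 to 72) against the 4 control libraries (columns), with an asterisk at an edgeR adjusted p under 0.05. TM7SF2 and MYLIP are the deepest blue fields, ABCA1 at 72 h is the deepest red, and the 48 h column is the palest, with 8 of 31 genes called.

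Counted over the 4 time points, 17 genes were called lower only, 8 higher only and 4 in both directions (SQLE, CYP51A1, NSDHL and SREBF2). HMGCS1 and SC5D were called at none of them. MYLIP was lower at all 4 time points, and NPC1 and STARD4 were higher at all 4. By mean level, 12 of the 31 genes were lowest at 72 h, 10 of them genes of synthesis, and 11 of the 31 were highest at 12 h. These patterns were not counted over all genes tested, so they are not read as a trait of the pathway. Most of the calls were within 1.5-fold. Beyond 1.5-fold, 3 genes were called higher and 6 lower at 12 h, 1 and 4 at 24 h, 0 and 1 at 48 h, and 2 and 5 at 72 h. The matching counts over all genes were not made.

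The 9 early enzymes of synthesis on the list, from acetyl-CoA to squalene, were lower or not called after 12 h of EGF. MVK, PMVK, IDI1, GGPS1 and FDFT1 were called lower, and 0 of the 9 were called higher. At 24 h 6 of the 9 were lower, at 48 h 0 and at 72 h 6, and the only gene called higher at those times was FDPS. Over all genes tested, 36.5%, 29.6%, 21.8% and 31% were called lower at 12, 24, 48 and 72 h. Whether the counts of these 9 genes differ from those shares was not tested. PMVK, the kinase that adds a further phosphate to phosphomevalonate, fell most. The untreated libraries held PMVK at 9.996, 8.11, 8.79 and 7.98 CPM, and those with EGF held it at 6.36, 5.39, 3.81 and 4.93 (12 h), 4.65, 4.86, 5.13 and 5.08 (24 h), 7.59, 8.95, 7.90 and 6.16 (48 h), and 7.32, 5.63, 6.65 and 7.03 (72 h). The control libraries lie above those of 12, 24 and 72 h, and at 48 h the ranges overlap. The fall was called at 12 h (log2 difference -0.76, SE 0.14, adjusted p = 2.95e-05 by edgeR) and at 24 h (log2 difference -0.82, SE 0.14, adjusted p = 1.88e-05 by edgeR), where PMVK (ENSG00000163344, chromosome 1, 154924734 to 154936991, - strand, 5 merged exons) stood at 4.93 ± 0.221 CPM (SD, n = 4) against 8.72 ± 0.922 CPM. At 72 h it was smaller (log2 difference -0.38, SE 0.13, adjusted p = 0.0159 by edgeR) and was not called without control replicate 1 (-0.32) or 72 h replicate 2 (-0.31). At 48 h the value was -0.19 (adjusted p = 0.256 by edgeR).

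MVK, the kinase before PMVK, was lower at 12 h (-0.35), 24 h (-0.31) and 72 h (-0.51, adjusted p = 4.92e-04 by edgeR), with control and EGF libraries overlapping at each. Its fall at 24 h was not called without control replicate 2 (-0.25), control replicate 4 (-0.28), 24 h replicate 3 (-0.25) or 24 h replicate 4 (-0.29). MVD, which makes isopentenyl diphosphate, was lower at 24 h (log2 difference -0.51, SE 0.10, adjusted p = 1.37e-04 by edgeR). At 72 h it was called lower too (-0.28), but that value turned to 0.15 with factors per gene and library recovered from the authors' normalized values, and was not called with at least 10 counts in every library (-0.22) or without control replicate 2 (-0.19), 72 h replicate 1 (-0.26) or 72 h replicate 2 (-0.25). IDI1, the isomerase of isopentenyl diphosphate, was at 803 ± 148 CPM in untreated cells and 555 ± 29.1 CPM at 12 h (log2 difference -0.53, SE 0.11, adjusted p = 2.57e-04 by edgeR), with no overlap between the libraries. It was lower at 24 h as well (-0.43), a call lost with the recovered factors per gene (-0.16), and at 72 h its value was -0.25 (adjusted p = 0.0599 by edgeR). That value passed the threshold under library size only (-0.33) or upper quartiles (-0.27), with a block by replicate number (-0.24), and without control replicate 2 (-0.36). IDI2-AS1, on the other strand, shares 14.8% of the exon bases of IDI1, and the sources used here do not say whether strand was used in counting.

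FDPS, which joins isoprenoid units into farnesyl diphosphate, went the other way. It was at 454 ± 50.1 CPM in untreated cells, 488 ± 12.3 CPM at 12 h (not called, adjusted p = 0.191 by edgeR), 554 ± 16.7 CPM at 24 h, 629 ± 50.2 CPM at 48 h and 595 ± 34.95 CPM at 72 h. From 24 h on, all 4 EGF libraries lay above all 4 controls, with log2 fold changes of 0.29, 0.47 and 0.39 (adjusted p = 0.00134, 8.55e-06 and 4.82e-05 by edgeR). The call at 24 h was lost under library size only (0.14) or with the recovered factors per gene (0.03), that at 72 h with the recovered factors per gene (0.19), and 18.6% of its exon bases are also exon of RUSC1-AS1 on the opposite strand. FDFT1, the synthase that joins farnesyl units into squalene, fell by little but with little spread. Its log2 fold changes were -0.16 at 12 h, -0.22 at 24 h and -0.34 at 72 h (adjusted p = 0.00906, 9.41e-04 and 4.17e-06 by edgeR), with no overlap at these times, and 0.02 at 48 h. The call at 12 h was lost with no filter beyond 1 count (-0.12). GGPS1, the branch enzyme toward geranylgeranyl diphosphate, had log2 fold changes of -0.27, -0.25 and -0.30 at 12, 24 and 72 h. Its libraries overlapped the controls each time, the fall at 12 h was not called without control replicate 3 (-0.17), that at 24 h not without control replicate 1 (-0.23), control replicate 3 (-0.16), 24 h replicate 2 (-0.24) or 24 h replicate 3 (-0.23), nor with the recovered factors per gene (-0.20) or with only the 8 libraries compared (-0.25). The fall at 72 h was lost with the recovered factors per gene (-0.23), and 37.3% of its exon bases are shared with TBCE on the same strand.

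Of ACAT2 and HMGCS1, the enzymes that open the pathway, ACAT2 was called at 72 h and HMGCS1 at no time against the control. ACAT2 was at 237 ± 29.1 CPM in untreated cells and 175 ± 5.002 CPM at 72 h (log2 difference -0.44, SE 0.068, adjusted p = 6.41e-06 by edgeR). At 12 and 24 h ACAT2 was called lower under library size only (-0.42 and -0.27) and upper quartiles (-0.29 and -0.17), and without control replicate 2 (-0.19 and -0.19). The same held with at least 10 counts in every library at 12 h (-0.17) and the recovered factors per gene at 24 h (-0.17). SOD2, SOD2-OT1 and TCP1, on the other strand, share 52.3% of its exon bases. HMGCS1 had log2 fold changes of 0.19, -0.08, -0.07 and 0.03 against the control. The first of these (adjusted p = 0.0537 by edgeR) passed the threshold without control replicate 3 (0.29) or 12 h replicate 1 (0.23). It also passed by the DESeq2 Wald test (0.22), with DESeq2 size factors (0.22), with no filter beyond 1 count (0.23) and with a block by replicate number (0.20). At 24 h HMGCS1 was called lower under library size only (-0.22).

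Past squalene, 4 of the 10 enzymes were called higher and 3 lower at 12 h. Over all genes tested the shares were 32.9% and 36.5%, so this split is not read as a trait of these enzymes. SQLE, CYP51A1, MSMO1 and NSDHL were higher and LSS, TM7SF2 and DHCR7 lower than in the control. For each of the 4 genes called higher, all libraries of 12 h lay above all controls. MSMO1 and NSDHL take part in removing methyl groups from the sterol ring. MSMO1 was at 934, 825, 1026 and 888 CPM in the control libraries and 1288, 1371, 1380 and 1416 CPM at 12 h (log2 difference 0.57, SE 0.084, adjusted p = 2.05e-06 by edgeR). NSDHL was at 185, 179, 168 and 169.8 CPM in the control libraries and 249, 252, 238 and 249 CPM at 12 h (log2 difference 0.49, SE 0.055, adjusted p = 2.43e-08 by edgeR). SQLE, the epoxidase that begins ring formation, was at 213 ± 17.4 and 287 ± 6.72 CPM (log2 difference 0.43, SE 0.07, adjusted p = 8.86e-06 by edgeR). The rises of SQLE and CYP51A1 were not called under scaling by library size only (0.15 and 0.11).

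None of these 4 genes was called higher at 24 h, when the libraries of all 4 genes lay below those of 12 h (-0.43 for SQLE, -0.59 for CYP51A1, -0.50 for MSMO1 and -0.44 for NSDHL, with edgeR's adjusted p from 5.47e-07 to 2.75e-05). CYP51A1, the lanosterol demethylase, had its lowest mean at 72 h. Library by library, CYP51A1 ran at 368, 323, 404 and 349 CPM without EGF, and with EGF at 453, 459, 496 and 489 (12 h), 275, 314, 326 and 342 (24 h), 278, 229, 306 and 294 (48 h), and 228, 253, 233 and 239 (72 h). The 12 h libraries are the highest and the 72 h libraries among the lowest, and the latter lie below every control. For CYP51A1 (ENSG00000001630, chromosome 7, 92112151 to 92134803, - strand, 11 merged exons), the log2 fold changes from 12 to 72 h were 0.39, -0.20, -0.38 and -0.60, with adjusted p of 1.89e-04, 0.0425, 5.50e-04 and 1.18e-06. The small fall at 24 h was not called without control replicate 1 (-0.19), control replicate 3 (-0.14), control replicate 4 (-0.21), 24 h replicate 1 (-0.14), 24 h replicate 2 (-0.20) or 24 h replicate 3 (-0.21), nor with DESeq2 size factors (-0.20), with the recovered factors per gene (-0.14), with no filter beyond 1 count (-0.20) or with only the 8 libraries compared (-0.20). From 24 to 48 h the difference was -0.18 (adjusted p = 0.0672 by edgeR), and that from 48 to 72 h (-0.22, adjusted p = 0.0449 by edgeR) was not called under 11 of the alternatives, 6 of which left out a library. The genes AC000120.2 and AC000120.3 share 79.3% of its exon bases on the same strand, so reads of these genes could not be told apart from its own in that stretch.

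TM7SF2, a sterol reductase that acts after CYP51A1, changed most among the genes of synthesis. Its CPM read 33.4, 41.9, 23.3 and 31 in the control libraries, and 9.80, 8.28, 9.89 and 7.99 (12 h), 7.81, 7.74, 5.06 and 5.76 (24 h), 28.6, 33.2, 19.1 and 21.4 (48 h), and 12.4, 11.1, 11.3 and 13.2 (72 h) after EGF. All libraries of 12, 24 and 72 h lie below all controls, and at 48 h the ranges overlap. TM7SF2 (ENSG00000149809, chromosome 11, 65111845 to 65116384, + strand, 4 merged exons) was at 32.4 ± 7.66 CPM in untreated cells and 6.59 ± 1.39 CPM at 24 h (log2 difference -2.29, SE 0.18, adjusted p = 4.57e-10 by edgeR). At 12 h the log2 fold change was -1.85 (adjusted p = 4.86e-09 by edgeR) and at 72 h -1.43 (adjusted p = 2.61e-07 by edgeR). At 48 h it was -0.34 (adjusted p = 0.0929 by edgeR), a value that passed the threshold without control replicate 3 (-0.48) or 48 h replicate 2 (-0.49), and with a block by replicate number (-0.34). Between 24 and 48 h the gene rose by a log2 fold change of 1.95, and between 48 and 72 h it fell again by one of -1.09 (adjusted p = 2.01e-08 and 4.21e-05 by edgeR).

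LSS, the cyclase that folds the epoxide of squalene into lanosterol, fell at 12, 24 and 72 h. LSS was measured at 145, 165, 119.9 and 140.2 CPM in the 4 control libraries, and after EGF at 90.1, 94.4, 81.7 and 83.5 (12 h), 99.8, 102, 94.95 and 97.2 (24 h), 145, 151, 109 and 116 (48 h), and 87.3, 83.9, 79.1 and 99.1 (72 h). No library of these 3 times reaches the lowest control, and 48 h overlaps the control. LSS (ENSG00000160285, chromosome 21, 46188141 to 46228824, - strand, 21 merged exons) had log2 fold changes of -0.70, -0.53 and -0.71 (adjusted p = 1.23e-06, 7.50e-05 and 1.71e-06 by edgeR), and -0.13 at 48 h (adjusted p = 0.304 by edgeR). DHCR7, a reductase of the final steps, was lowest at 24 and 72 h. The untreated libraries held DHCR7 at 777, 868, 690.1 and 752 CPM, and those with EGF held it at 676, 701, 623 and 677 (12 h), 502, 493, 497 and 484 (24 h), 803, 833, 663 and 684 (48 h), and 534, 481, 565 and 541 (72 h). The 24 and 72 h libraries are below every control, while those of 12 and 48 h are not. DHCR7 (ENSG00000172893, chromosome 11, 71428193 to 71452868, - strand, 11 merged exons) had a log2 fold change of -0.64 at 24 h (standard error 0.076, adjusted p = 1.17e-07 by edgeR) and -0.54 at 72 h (standard error 0.076, adjusted p = 1.35e-06 by edgeR). Its fall at 12 h (-0.21) was not called without control replicate 2 (-0.14) or 12 h replicate 3 (-0.17), nor with no filter beyond 1 count (-0.17).

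At 72 h, 8 of the 10 later enzymes were lower than in the control, beside 31% of all genes tested, a difference in share that was not tested. Of the 10, MSMO1 alone was higher (0.22, adjusted p = 0.0286 by edgeR). Its call was lost under library size only (0.14) or with the recovered factors per gene (0.21). It was also lost without control replicate 2 (0.17), control replicate 4 (0.20), 72 h replicate 2 (0.20) or 72 h replicate 3 (0.21). HSD17B7, a ketosteroid reductase of the same demethylation, and EBP, the sterol isomerase, were first called lower at that time, with log2 fold changes of -0.32 and -0.35 (adjusted p = 8.01e-04 and 4.81e-04 by edgeR) and no overlap with the control libraries. NSDHL and SQLE were also lower, by -0.18 and -0.20. The fall of SQLE at 72 h was not called with the recovered factors per gene (-0.29) or with at least 10 counts in every library (-0.14), nor without control replicate 3 (-0.15) or 72 h replicate 1 (-0.17). That of NSDHL was lost with no filter beyond 1 count (-0.18) or with only the 8 libraries compared (-0.17). SC5D, the desaturase before DHCR7, had log2 fold changes from -0.14 to 0.09 and a wide control range of 631 to 989 CPM. It passed the threshold at 24 h without control replicate 3 (0.23) and at 12 h without control replicate 2 (-0.22). At 12 h it also passed under library size only (-0.42) and upper quartiles (-0.30).

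**Figure D2:**
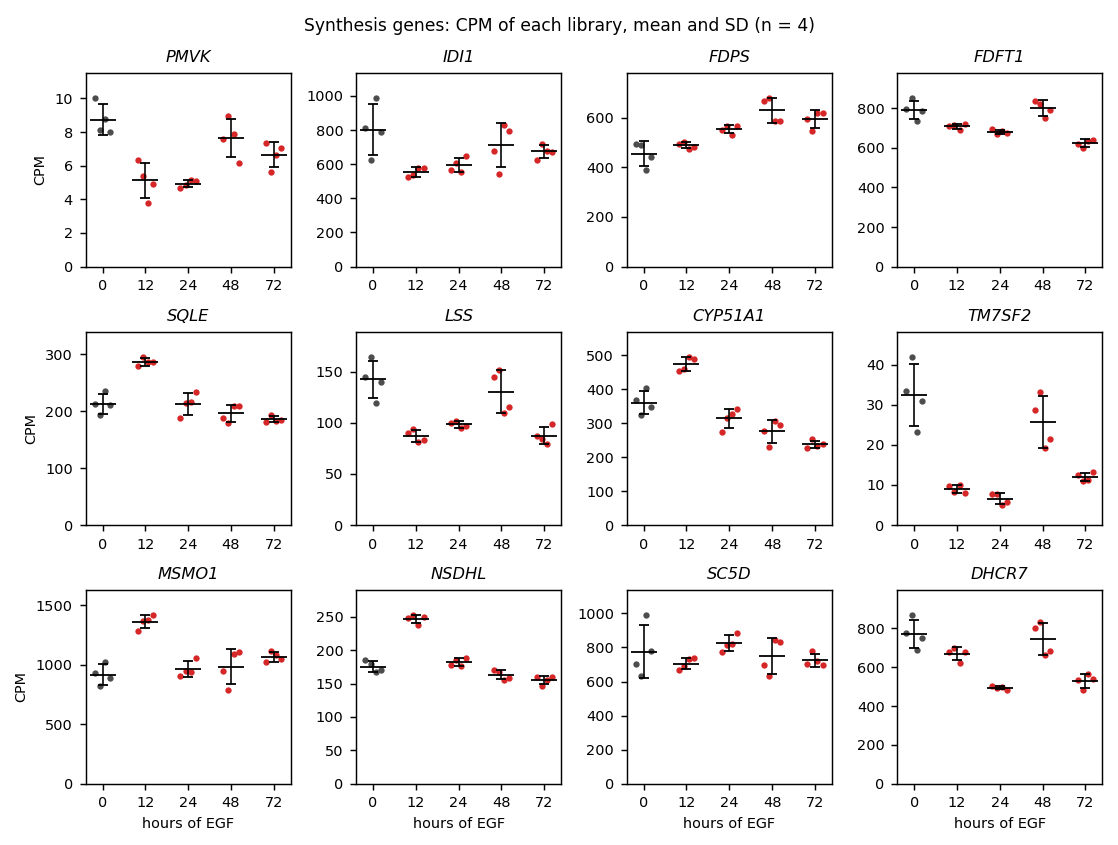
CPM (vertical axes, from 0) of 12 of the 19 synthesis genes in each library of the control (grey, 0 h) and after EGF for the hours on the horizontal axis (red; times are evenly spaced), with the mean and SD of the 4 libraries in black. SQLE, CYP51A1, MSMO1 and NSDHL peak at 12 h, TM7SF2, PMVK and DHCR7 are lowest at 24 h, and FDPS is above the control from 24 h on.

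Summed over the 19 synthesis genes, expression moved less than single genes did. The sum was at 6539 to 7295 CPM in the control libraries, 6837 to 7201 at 12 h, 5975 to 6532 at 24 h, 6400 to 7006 at 48 h and 5978 to 6212 at 72 h. The 24 and 72 h libraries lie below every control library, and the others overlap the control. A sum of this kind is led by its most abundant genes, with MSMO1 at 918 ± 84.7 and IDI1 at 803 ± 148 CPM in untreated cells and MVK at 18.3 ± 2.60 and PMVK at 8.72 ± 0.922 CPM. Per kilobase of exon, the control level ran from 317.5 CPM for MSMO1, the highest of all 31 genes, over 185.5 for DHCR7 and 184.8 for IDI1, down to 6.81 for PMVK and 2.83 for MVK.

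**Figure D3:**
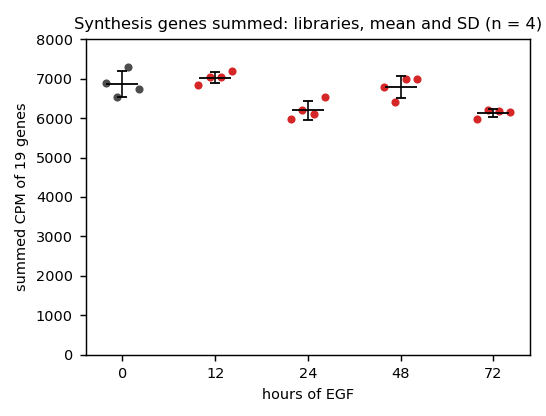
Summed CPM of the 19 synthesis genes (vertical axis, from 0) in each library of the control (grey) and of the 4 EGF times (red; times are evenly spaced), with the mean and SD of 4 libraries in black. The mean is 6870 CPM in untreated cells, and 7033, 6202, 6799 and 6130 CPM at the successive EGF times.

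Of 4 genes of the sterol-sensing system, SREBF2, SCAP and INSIG1 were lower at 72 h and INSIG2 higher. SREBF2 was at 127 ± 23.1 CPM in untreated cells, 155 ± 7.96 CPM at 12 h, 114 ± 2.82 CPM at 24 h, 119 ± 14.2 CPM at 48 h and 87.6 ± 5.10 CPM at 72 h. Its rise at 12 h was called (log2 difference 0.29, SE 0.096, adjusted p = 0.0108 by edgeR) with overlapping libraries, and was lost under library size only (0.00), with upper-quartile scaling (0.12) and with the recovered factors per gene (0.33). At 72 h its libraries lay below all controls (log2 difference -0.54, SE 0.097, adjusted p = 4.34e-05 by edgeR). SCAP, which moves that factor to the Golgi, was lower at 24 h (log2 difference -0.55, SE 0.13, adjusted p = 8.93e-04 by edgeR) and 72 h (log2 difference -0.51, SE 0.13, adjusted p = 0.00163 by edgeR). INSIG1, a retention protein whose own gene is a known target of the SREBF2 product, was lower at 24, 48 and 72 h. It was at 304, 293, 337 and 311 CPM in the control libraries and at 215, 205, 206 and 204 CPM at 72 h (log2 difference -0.59, SE 0.057, adjusted p = 4.50e-09 by edgeR). At 24 h its log2 fold change was -0.41, and the smaller one at 48 h (-0.18) was not called without control replicate 3 (-0.14) or 48 h replicate 2 (-0.13), nor with no filter beyond 1 count (-0.18) or with only the 8 libraries compared (-0.18). INSIG2, its relative, was called higher at 12 h (0.35) and 72 h (0.37). The first call was lost under library size only (0.07), with upper-quartile scaling (0.20) or with the recovered factors per gene (0.27), and without control replicate 2 (0.24) or 12 h replicate 3 (0.32). The second was lost under library size only (0.29) or with the recovered factors per gene (0.35), and without control replicate 2 (0.24) or 72 h replicate 2 (0.27).

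MYLIP, a ubiquitin ligase that limits the uptake of lipoprotein cholesterol and a known target of the liver X receptors, had the largest fall of the sensing and uptake genes. Library by library, MYLIP ran at 19.3, 15.9, 16.01 and 15.4 CPM without EGF, and with EGF at 4.19, 3.98, 3.70 and 4.26 (12 h), 6.23, 4.35, 4.74 and 4.98 (24 h), 11.2, 10.9, 12.2 and 12.9 (48 h), and 6.13, 6.49, 8.15 and 6.77 (72 h). No EGF library at any time reaches the lowest control, and among the EGF groups 48 h is the nearest to it. MYLIP (ENSG00000007944, chromosome 6, 16129125 to 16148248, + strand, 7 merged exons) was at 16.7 ± 1.77 CPM in untreated cells and 4.03 ± 0.251 CPM at 12 h (log2 difference -2.04, SE 0.12, adjusted p = 3.39e-13 by edgeR). At 24 h the log2 fold change was -1.71, at 48 h -0.49 and at 72 h -1.28 (adjusted p = 9.79e-12, 6.38e-04 and 8.67e-10 by edgeR). It rose between 24 and 48 h (1.21) and fell between 48 and 72 h (-0.78), with no overlap in either step.

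NPC1 and STARD4 carry cholesterol inside the cell, NPC1 out of lysosomes and STARD4 between membranes. NPC1 read 56.1, 63.8, 53.7 and 60.1 CPM in the control libraries, and 114, 118, 112 and 119 (12 h), 69.9, 85.9, 95.7 and 85.02 (24 h), 73.8, 81.96, 75.03 and 69.3 (48 h), and 92.96, 82.1, 88.6 and 86.3 (72 h) after EGF. Every EGF library is above every control, most of all at 12 h. NPC1 (ENSG00000141458, chromosome 18, 23506184 to 23586898, - strand, 26 merged exons) had log2 fold changes of 0.99, 0.53, 0.36 and 0.58 at the 4 times (adjusted p = 1.28e-10, 5.54e-06, 7.30e-04 and 1.07e-06 by edgeR). STARD4 rose from 96.97 ± 16.2 CPM in untreated cells to 141 ± 7.05 CPM at 24 h (log2 difference 0.53, SE 0.11, adjusted p = 1.38e-04 by edgeR) and 142 ± 8.84 CPM at 72 h (log2 difference 0.55, SE 0.11, adjusted p = 9.83e-05 by edgeR). At 48 h its log2 fold change was 0.35, not called with only the 8 libraries compared (0.35). The rise at 12 h (0.26, adjusted p = 0.0304 by edgeR) turned to -0.02 under scaling by library size only, and was not called with upper-quartile scaling (0.10) or with at least 10 counts in every library (0.23), nor without control replicate 1 (0.22), control replicate 2 (0.20), 12 h replicate 3 (0.26) or 12 h replicate 4 (0.24).

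Export and esterification held the largest rise of the 31 genes. ABCA1, a pump that moves cholesterol out of the cell, had few counts in the control (15 to 22 per library) and more at 72 h (62 to 114). ABCA1 was measured at 1.11, 0.799, 0.640 and 1.01 CPM in the 4 control libraries, and after EGF at 1.01, 1.63, 1.49 and 1.004 (12 h), 1.63, 2.03, 1.92 and 2.54 (24 h), 1.39, 0.782, 1.10 and 1.99 (48 h), and 4.39, 5.12, 3.74 and 3.96 (72 h). All libraries of 24 and 72 h are above the controls, and those of 12 and 48 h overlap them. For ABCA1 (ENSG00000165029, chromosome 9, 104781002 to 104928237, - strand, 51 merged exons), the log2 fold change was 1.20 at 24 h (standard error 0.26, adjusted p = 2.98e-04 by edgeR) and 2.28 at 72 h (standard error 0.24, adjusted p = 1.99e-08 by edgeR). At 12 and 48 h it was 0.53 and 0.57 (adjusted p = 0.0803 and 0.0783 by edgeR), and the latter passed without 48 h replicate 2 (0.75). Between 48 and 72 h the gene rose by a log2 fold change of 1.71 (adjusted p = 3.66e-06 by edgeR).

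ABCG1, the other pump, stayed under 1 CPM in every library and was called lower at 12 and 48 h and higher at no time. The untreated libraries held ABCG1 at 0.553, 0.841, 0.555 and 0.481 CPM, and those with EGF held it at 0.152, 0.218, 0.276 and 0.191 (12 h), 0.544, 0.791, 0.449 and 0.732 (24 h), 0.277, 0.391, 0.418 and 0.181 (48 h), and 0.809, 0.626, 0.447 and 0.766 (72 h). The 12 h libraries are below all others of the control, 24 h and 72 h, and those of 48 h are also below the controls. ABCG1 (ENSG00000160179, chromosome 21, 42199689 to 42297244, + strand, 22 merged exons) gave 10 to 20 counts in a control library and 3 to 5 at 12 h (log2 difference -1.53, SE 0.35, adjusted p = 5.44e-04 by edgeR). Its fall at 48 h (log2 difference -0.92, SE 0.32, adjusted p = 0.0231 by edgeR) was not called with no filter beyond 1 count (-0.92), by the DESeq2 Wald test (-0.93) or with only the 8 libraries compared (-0.92), nor without control replicate 2 (-0.72), 48 h replicate 1 (-0.86) or 48 h replicate 4 (-0.72). At 24 and 72 h the values were 0.05 and 0.13, with standard errors of 0.30 and 0.30 at 7 to 15 and 8 to 21 counts per library, and neither difference was detectable at this depth.

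The liver X receptors themselves moved in opposite directions at 12 h. Library by library, NR1H3 ran at 12.4, 10.8, 8.45 and 9.61 CPM without EGF, and with EGF at 4.55, 4.03, 5.74 and 4.97 (12 h), 8.95, 7.40, 6.41 and 7.08 (24 h), 14.4, 14.3, 10.6 and 11.4 (48 h), and 11.4, 11.7, 9.88 and 12.1 (72 h). The 12 h libraries are below every control, and the 48 and 72 h libraries are within or above the control range. NR1H3 (ENSG00000025434, chromosome 11, 47248300 to 47269032, + strand, 11 merged exons) fell at 12 h (log2 difference -1.09, SE 0.14, adjusted p = 3.31e-07 by edgeR) and was lower at 24 h (-0.46, adjusted p = 0.00611 by edgeR), with overlapping libraries at 24 h. At 48 and 72 h it was at 0.30 and 0.13 (adjusted p = 0.0666 and 0.404 by edgeR), and the former passed the threshold without control replicate 1 (0.40) or 48 h replicate 3 (0.38). The 48 h value also passed with at least 10 counts in every library (0.34) and with a block by replicate number (0.30). NR1H2 read 11.9, 15.1, 8.75 and 11.4 CPM in the control libraries, and 20.2, 19.3, 19.1 and 19.03 (12 h), 14.7, 12.9, 13.2 and 13.96 (24 h), 16.9, 16.3, 12.99 and 14.3 (48 h), and 18.1, 17.5, 16.7 and 18.8 (72 h) after EGF. For this gene the 12 and 72 h libraries are above every control. NR1H2 (ENSG00000131408, chromosome 19, 50329653 to 50382982, + strand, 13 merged exons) was higher at 12 h (log2 difference 0.72, SE 0.12, adjusted p = 7.28e-06 by edgeR) and 72 h (log2 difference 0.59, SE 0.12, adjusted p = 1.16e-04 by edgeR). Its log2 fold change was 0.36 at 48 h, not called with the recovered factors per gene (0.27) or with only the 8 libraries compared (0.36), nor without control replicate 3 (0.23) or 48 h replicate 1 (0.30), and 0.21 at 24 h (adjusted p = 0.121 by edgeR), called without control replicate 2 (0.36).

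SOAT1, which esterifies cholesterol for storage in lipid droplets, was higher at 3 of the 4 times. SOAT1 was measured at 81.5, 79.8, 104 and 91.1 CPM in the 4 control libraries, and after EGF at 138, 141, 146 and 145 (12 h), 108, 119, 129.7 and 122 (24 h), 83.2, 77.3, 95.8 and 90.3 (48 h), and 111, 115, 113 and 106 (72 h). The 12, 24 and 72 h libraries are above all controls, and the 48 h libraries lie within or below the control range. SOAT1 (ENSG00000057252, chromosome 1, 179293714 to 179358680, + strand, 17 merged exons) had log2 fold changes of 0.68, 0.43 and 0.32 at 12, 24 and 72 h (adjusted p = 5.71e-08, 6.39e-05 and 0.0012 by edgeR) and -0.04 at 48 h.

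**Figure D4:**
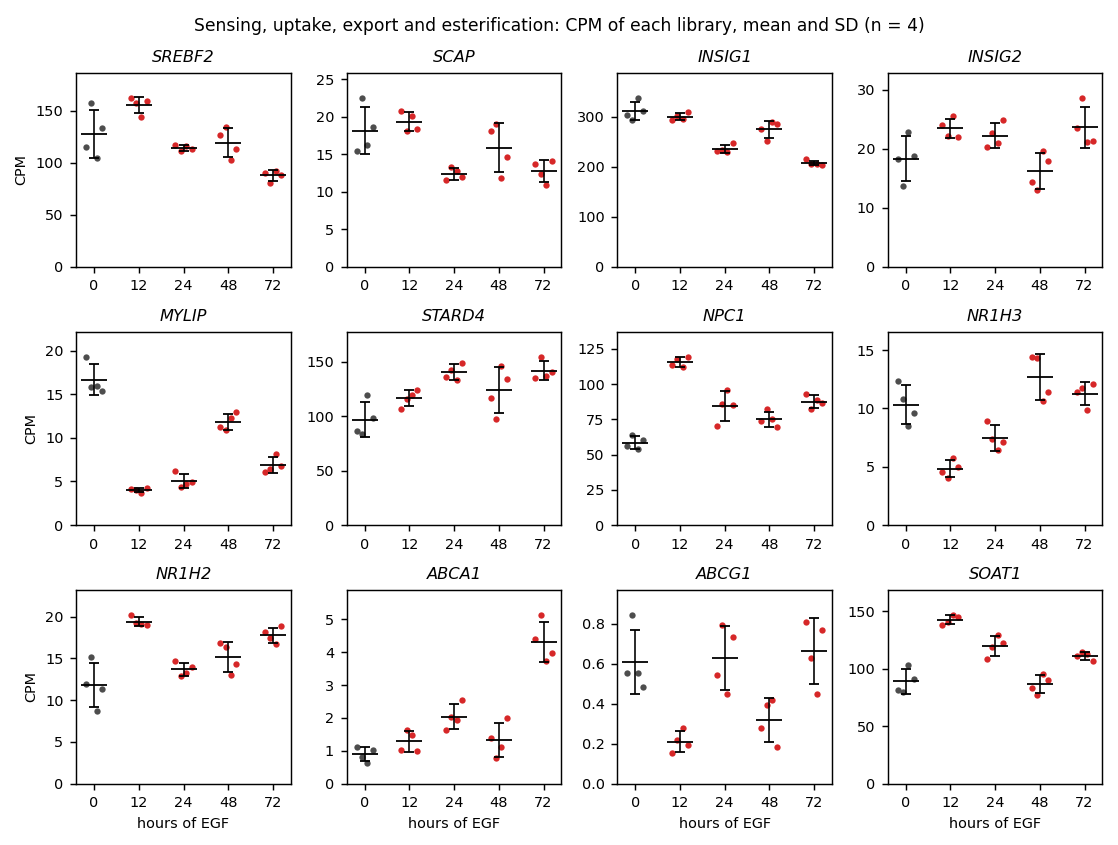
CPM (vertical axes, from 0) of the 12 genes of sensing, uptake, export and esterification in each library of the control (grey, 0 h) and after EGF for the hours on the horizontal axis (red; times are evenly spaced), with the mean and SD of the 4 libraries in black. MYLIP is below and NPC1 above the control at every time, ABCA1 stands out at 72 h, and ABCG1 stays under 1 CPM.

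Tested from each time to the next, more of the 31 genes were called lower than higher from 12 to 24 h and from 48 to 72 h, and more higher than lower from 24 to 48 h. From 12 to 24 h, 6 of the 31 were higher and 15 lower, where all genes gave 27.9% higher and 25.9% lower and the pathway 19.4% and 48.4%. Of the 10 later enzymes of synthesis, 7 were lower and 0 higher. From 24 to 48 h, 12 were higher and 5 lower, or 38.7% and 16.1%, beside 25.9% and 24.3% of all genes. TM7SF2, MYLIP, PMVK, DHCR7 and NR1H3 were among the 12, each by more than 1.5-fold, with log2 fold changes of 1.95, 1.21, 0.63, 0.59 and 0.76. From 48 to 72 h, 5 were higher and 13 lower, or 16.1% and 41.9%, beside 17.9% in either direction over all genes. Of the 19 synthesis genes, 10 were lower in this last step and 0 higher. The split depended on scaling for the first 2 of these steps, with 8 higher and 11 lower from 12 to 24 h and 18 higher and 2 lower from 24 to 48 h under library size only, and with 8 and 11, and 15 and 3, under upper quartiles. Of all genes called under library size only, 68.6% and 71.8% were higher in these 2 steps, beside 42.1% and 90% of the pathway genes called. Under upper quartiles the shares were 66.1% and 59.2% over all genes, beside 42.1% and 83.3%.

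A wider list of 62 sterol genes gave the surroundings of the pathway, and 56 of these passed the filter. Values of the wider list were not checked under other scalings or filters, or with a library left out. Of the 56, 21 were higher and 22 lower at 12 h, 15 and 20 at 24 h, 13 and 10 at 48 h, and 19 and 18 at 72 h. These are shares of 37.5% and 39.3% (12 h), 26.8% and 35.7% (24 h), 23.2% and 17.9% (48 h), and 33.9% and 32.1% (72 h), beside the shares over all genes given above of 32.9% and 36.5%, 29.2% and 29.6%, 24.0% and 21.8%, and 30.6% and 31%. Of its 22 genes for uptake and movement in the cell, 10 were higher and 6 lower at 12 h (45.5% and 27.3%), 12 and 5 at 24 h (54.5% and 22.7%), 9 and 1 at 48 h (40.9% and 4.55%), and 12 and 4 at 72 h (54.5% and 18.2%). CAV1, the main protein of caveolae, rose most at every time (log2 fold changes 2.01, 2.53, 2.19 and 1.92), from 56.6 ± 4.63 CPM in untreated cells to 326 ± 6.82 CPM at 24 h. The 3 GRAMD1 genes, which encode proteins that move cholesterol from the plasma membrane to the endoplasmic reticulum, differed in pattern. GRAMD1A was higher at all 4 times and most at 12 h (1.52, adjusted p = 2.96e-12 by edgeR, then 0.69, 0.40 and 0.41). GRAMD1C fell at 12 h from 11.4 ± 2.08 to 1.82 ± 0.217 CPM (-2.65, adjusted p = 5.31e-12 by edgeR) and was lower at 24 and 72 h (-0.95 and -0.45). GRAMD1B was higher at 24 h (0.71), 48 h (1.03) and 72 h (1.66, adjusted p = 1.25e-13 by edgeR). OSBPL6, of the family of oxysterol-binding proteins, was higher at all 4 times (1.26, 1.58, 0.95 and 1.26).

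Among the falls, SREBF1, the relative of SREBF2 that serves fatty acid synthesis and is a target of the liver X receptors, was at 40.4 ± 11.7 CPM in untreated cells, 13.1 ± 0.589 CPM at 12 h (log2 difference -1.62, SE 0.17, adjusted p = 1.46e-08 by edgeR), 15.3 ± 2.52 CPM at 24 h (log2 difference -1.40, SE 0.16, adjusted p = 2.07e-07 by edgeR) and 16.95 ± 2.08 CPM at 72 h (-1.25, adjusted p = 7.89e-07 by edgeR), with -0.37 at 48 h (adjusted p = 0.0588 by edgeR). LPCAT3, an acyltransferase of phospholipids and another such target, fell at 12 h (-1.20), 24 h (-1.36) and 72 h (-0.81), with -0.15 at 48 h (adjusted p = 0.132 by edgeR), and 65.6% of its exon bases are shared with EMG1 on the other strand. CYP27A1, which makes an oxysterol in mitochondria, fell from 40.9 ± 3.86 to 13.2 ± 0.935 CPM at 12 h (log2 difference -1.63, SE 0.094, adjusted p = 2.75e-13 by edgeR) and was lower at 24 h (-0.96), with 0.19 and -0.07 at 48 and 72 h, not called. PGRMC1, which binds heme and cytochrome P450 enzymes, was lower at all 4 times (-0.55, -0.59, -0.69 and -0.68). PDSS1, which makes the side chain of coenzyme Q, moved both ways. It was higher at 12 h (log2 difference 0.72, SE 0.11, adjusted p = 4.22e-06 by edgeR) and lower at 48 h (-0.44) and 72 h (-0.53), with no overlap at these times.

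Promoter windows from RefSeq (GRCh38.p14), each from 250 bases before to 50 bases after an annotated start, were at hand for 27 of the 31 genes. They were searched on both strands for 4 motifs, and a gene was counted if any of its windows held a match. TCACNCCAC, a form of the sterol regulatory element, was found in 1 of the 27, SREBF2, and in 1.39% of all 27305 genes with windows of the same length. CCAAT, the box bound by NF-Y, was found in 20 of the 27 (74.1%) and in 39.7% of all genes. GGGCGG, the GC box, was found in 26 (96.3%) and in 48.3% of all genes, and CACGTG, an E-box, in 5 (18.5%) and 8.77%. The shares over all genes include genes that do not code for proteins. A match describes these letters only, and no binding was measured. The following stretches are the 120 bases just before the outermost annotated start of SREBF2, which held the sterol element, of MSMO1 and NSDHL, which were higher at 12 h, and of LSS, which was lower, 5′ to 3′ on the strand of the gene, with matches to the 4 motifs on either strand in capitals.
SREBF2: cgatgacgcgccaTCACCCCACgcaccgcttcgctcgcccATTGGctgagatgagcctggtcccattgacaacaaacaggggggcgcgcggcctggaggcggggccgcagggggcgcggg
MSMO1: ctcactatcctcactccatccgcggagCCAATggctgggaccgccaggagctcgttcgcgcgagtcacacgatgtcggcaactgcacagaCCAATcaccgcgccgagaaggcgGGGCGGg
NSDHL: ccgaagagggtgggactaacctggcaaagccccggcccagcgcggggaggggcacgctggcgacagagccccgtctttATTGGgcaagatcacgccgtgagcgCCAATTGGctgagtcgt
LSS: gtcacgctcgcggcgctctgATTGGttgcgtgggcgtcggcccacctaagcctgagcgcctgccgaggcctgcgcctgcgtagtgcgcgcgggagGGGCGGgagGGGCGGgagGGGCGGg
They lie at chr22:41832959-41833078 (+ strand), chr4:165327503-165327622 (+ strand), chrX:152830847-152830966 (+ strand) and chr21:46228825-46228944 (- strand) in GRCh38. The SREBF2 stretch holds the sterol element with 1 CCAAT box, on the reverse strand, and lies in an exon of the antisense gene SREBF2-AS1. MSMO1 has 2 CCAAT boxes and 1 GC box, NSDHL 3 CCAAT boxes, of which 2 overlap on opposite strands, and LSS 1 CCAAT box and 3 GC boxes.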

How the data were processed

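MDA-MB-468 libraries were made with the Lexogen Corall mRNA kit and read single-end on an Illumina instrument by the authors. The deposited tables hold, for each library, estimated counts per gene, given as whole numbers, beside a normalized score on the scale of counts that the authors made from them. The fold changes and p-values of DESeq2 stand beside them and were not used. The submitters' processing notes name hg38 and DESeq2. The aligner, the counter, the use of strand and the handling of molecular identifiers are not given in the sources used here. The same counts stand in all 10 tables, so 1 was used.

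The estimated counts were analyzed with edgeR 4.0.16 in R 4.3.3. The default filterByExpr kept 16522 of 60271 genes, TMM scaling was applied, and 1 model with 5 group means was fitted robustly to 20 libraries, with Benjamini-Hochberg adjustment over all genes. Log2 fold changes use a prior count of 0.125. The labels call the samples biological replicates, and nothing says how separate the cultures were, so p-values measure the spread between these samples. Counts were also simulated with 1 mean per gene for all groups, except for genes changed at 12 h, 50 for each size of change. With 16105 genes, 12 of 50 genes changed 1.25-fold were called, 35 of 50 changed 1.5-fold, 49 of 50 changed 2-fold, and 8 unchanged genes. In the real comparison at 12 h 5433 genes were called higher and 6032 lower, so these rates need not carry over to it. Gene positions are from GENCODE 29, with the exons of all transcripts merged. The genes and lists were chosen with earlier results of these data known. Genes given library by library in all 5 groups were those called without overlap and past 1.5-fold at a time point, up to 12 by size. MSMO1, NSDHL and INSIG1, given so in 2 groups, were chosen after their values were seen. Of the wider list, the 2 largest rises and falls per time point among genes called without overlap are named.

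Alternatives were library size, upper-quartile and DESeq2 1.42.0 size factors, factors per gene and library recovered from the deposited scores (for genes of 20 counts or more per library), the DESeq2 Wald test, other filters, fits restricted to 8 libraries, a block by replicate number, a larger prior count (2), and the removal of each library in turn.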

Additional observations from a re-analysis of the deposited data

Results flagged for a closer look

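Each of the 155 sets of 4 libraries (31 genes in 5 groups) was examined for a library far from the others by Dixon's ratio at its 95% critical value, which chance passes in about 1 of 20 sets, or 7.75 of 155. A single set passed. MYLIP was at 19.3 CPM in control replicate 1 and at 15.4 to 16.0 CPM in the other control libraries, a ratio of 0.850. Without that library, the log2 fold changes of MYLIP over the 4 times were -1.96, -1.63, -0.42 and -1.20, all called by edgeR (largest adjusted p = 0.00420).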

How the results depend on the processing

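The count of genes called in the 7 comparisons stayed within 1.5 times the reported count under the alternatives run, except at 48 h against control, where a fit of only the 8 libraries compared called 4 genes in place of 8. Leaving out each library in turn gave 18 to 22 calls at 12 h, 16 to 21 at 24 h, 6 to 10 at 48 h and 22 to 26 at 72 h, and 17 to 20, 13 to 18 and 15 to 18 for 24 against 12 h, 48 against 24 h and 72 against 48 h. Under every alternative that could be run, 13 of 21 calls held with their direction at 12 h, 14 of 19 at 24 h, 4 of 8 at 48 h and 18 of 26 at 72 h. Calls were also gained, and not all of these are named. At 12 h MVD and INSIG1 were called lower under library size only (-0.41 and -0.33), upper quartiles (-0.29 and -0.21) and the recovered factors per gene (-0.45 and -0.14). A value that was called in the reported fit or under the alternative changed sign in 5 cases. Under library size only, FDPS (-0.18) and EBP (-0.22), not called in the reported fit but called lower there, and STARD4 (-0.018) turned at 12 h, where the median of all genes was -0.34. With the recovered factors per gene, MVD turned at 72 h (0.15) and at 24 against 12 h (0.028). The cause was not tested. Another 93 values, none above 0.20 in size, changed sign without being called. Correlations of deviations between samples with the same replicate number ran from -0.56 to 0.68 (median 0.03 over 40 pairs, beside -0.02 over 120 pairs with different numbers). In each of the 7 comparisons at most 2 of the 4 same-numbered pairs were over 0.1, so the number was not taken as a pairing, while between 12 and 48 h, which were not compared, all 4 were (0.15 to 0.38). With a replicate block the counts were 22, 19, 10 and 27 at 12, 24, 48 and 72 h and 23, 18 and 18 for the later steps, with 7 values gaining a call and 0 losing one. The sterol element was found in 1 promoter with either spelling (TCACNCCAC or TCACCCCAC). Of the 31 genes, depth limits ABCA1 and ABCG1 most.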

Other observations

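Genes that assist the enzymes of synthesis were also measured, as was MMAB, a neighbour of MVK. The genes in this paragraph were named after their values were seen. ERG28, a scaffold for the enzymes that demethylate the sterol ring, fell at 12 h from 295 ± 11.0 to 157 ± 3.74 CPM (log2 fold change -0.91, edgeR adjusted p = 6.26e-12), while MSMO1 and NSDHL of the same step were higher by 0.57 and 0.49. POR, the electron donor of SQLE and CYP51A1, was lower at 12, 24, 48 and 72 h (-0.72, -0.87, -0.28 and -0.81). MMAB, which lies head to head with MVK on the opposite strand, fell at 12, 24 and 72 h (-1.27, -1.0 and -0.66), more than MVK did (-0.35, -0.31 and -0.51). The difference between these 2 genes was not tested.

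The genes of this paragraph, too, were named after their values were seen. Of the genes that release or hold cholesterol in the cell, LIPA, the lysosomal lipase of cholesterol esters, was lower at 12 and 24 h (-0.91 and -0.69) and not called at 48 and 72 h. NCEH1, a hydrolase of cholesterol esters outside the lysosome, was higher at all 4 times (0.59, 0.59, 0.59 and 0.67). NPC2, which hands cholesterol to NPC1, was higher at all 4 times by 0.16 to 0.21, with no overlap between EGF and control libraries. These small rises, like all other values of the wider list, were not checked under other scalings or filters, or with a library left out. LRP1, a large lipoprotein receptor, was lower at 12 h (-0.55) and higher at 24, 48 and 72 h (0.60, 0.93 and 1.16).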
